A study of Homo sapiens with 12 samples.

Results

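Metallothioneins, their regulator MTF1 and the zinc exporter SLC30A1 were examined in SW1783 cells, a human astrocytoma line, given an extract made in water from Aconitum carmichaeli Debeaux (ACD). The genes were taken by name from the deposited table, and 9 of its 60675 gene IDs belong here, namely MT2A, MT1E, MT1X, MT1F, MT1G, MT1M, MT3, MTF1 and SLC30A1. Cells were kept for 24 h with vehicle, which was PBS containing 2% DMSO, or with the extract at 20 (low), 100 (medium) or 500 (high dose) µg/mL, and each of these 4 groups gave 3 libraries. By the study's methods, the extract stock was made up in the same solvent and added to the culture medium in a small volume. The 2% thus refers to the solvent, not to the medium on the cells. The extract is named after the sample titles and treatment labels, because the treatment protocol filed with them describes a different herb. No source states whether the 3 libraries of a group came from separate cultures, so p-values measure only the spread between these libraries. In RNA from a whole culture, a change in the share of cells and a change in RNA per cell cannot be told apart.

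Metallothioneins are small proteins rich in cysteine that bind zinc, copper and cadmium and buffer the level of free zinc in the cell. Their genes lie in a cluster, and MTF1, a zinc finger transcription factor that senses zinc, switches them on by binding metal response elements (MREs) near their start sites. SLC30A1, also called ZnT1, carries zinc out across the plasma membrane and is another known target of MTF1. MT1 and MT2 proteins are made by astrocytes in the brain, where their genes are known to respond to metals, glucocorticoids and oxidative stress, and MT3 is a form found mainly in the nervous system.

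The promoters are shown because MREs lie there, and because MT2A and MT1X, from one cluster, can be compared in them. The 250 bases before the start site were taken from RefSeq (GRCh38.p14), which held 4 of the 9 genes: MT2A, MT1X, SLC30A1 and MTF1. Capitals mark each match to the MRE core, spelled TGCACNC or TGCGCNC and searched on both strands, so that a match on the other strand reads as its reverse complement.
MT2A, chr16:56608334-56608583, plus strand: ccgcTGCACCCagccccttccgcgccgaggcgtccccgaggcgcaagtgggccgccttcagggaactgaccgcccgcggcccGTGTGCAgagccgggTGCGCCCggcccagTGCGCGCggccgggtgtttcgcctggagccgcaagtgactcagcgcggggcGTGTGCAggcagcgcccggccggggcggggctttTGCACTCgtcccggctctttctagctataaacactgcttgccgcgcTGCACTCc
MT1X, chr16:56682220-56682469, plus strand: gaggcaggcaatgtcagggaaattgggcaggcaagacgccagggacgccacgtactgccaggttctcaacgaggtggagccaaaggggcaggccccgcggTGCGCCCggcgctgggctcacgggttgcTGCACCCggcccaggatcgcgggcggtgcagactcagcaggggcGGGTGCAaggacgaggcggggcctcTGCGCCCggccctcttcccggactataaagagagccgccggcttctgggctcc
SLC30A1, chr1:211579162-211579411, minus strand: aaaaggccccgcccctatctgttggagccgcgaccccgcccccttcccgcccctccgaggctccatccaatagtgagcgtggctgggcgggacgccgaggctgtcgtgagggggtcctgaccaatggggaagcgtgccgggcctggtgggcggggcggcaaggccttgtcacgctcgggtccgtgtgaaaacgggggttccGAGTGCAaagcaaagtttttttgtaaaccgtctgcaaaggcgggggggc
MT2A held 7 matches, MT1X held 4, SLC30A1 held 1, and the 250 bases before MTF1 (chr1:37859593-37859842, minus strand) held 0. Of 35116 promoters of the same length, 24.8% held at least 1 match, 0.37% at least 4 and 0.0313% at least 7. The core of the antioxidant response element, TGACNNNGC, is bound by NRF2. It occurred once each in the MT2A, MT1X and SLC30A1 stretches, as it did at least once in 10.9% of all promoters, and did not overlap an MRE match. These matches describe letters in a window and do not show binding.

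Total counts per library lay between 18863863 and 24200576. The labelled cell type was checked against 10 markers of astrocytes and glioma. CD44, VIM, SOX9, SLC1A3 and NES were expressed, while GFAP had 0 to 6 counts, S100B 0 to 5, ALDH1L1 0 to 2, SLC1A2 3 to 9 and AQP4 0 in all 12 libraries. The 5 markers of intestinal epithelium summed to 0 to 8 normalised counts in every library. Counts were also present for SYT1, SNAP25, CD68, PTPRC and MBP, which mark other brain cells or leukocytes. Several of these markers moved with dose, and not all one way. Of the line's own markers, SLC1A3 fell from 690.1 ± 21.8 with vehicle to 126 ± 4.28 normalised counts at the high dose (SD, n = 3). NES fell from 214 ± 11.6 to 64.7 ± 7.21, and both were lower DEGs (adjusted p under 0.05 and over 1.5-fold). CD44 fell from 56908 to 43678 and SOX9 from 1434 to 1206, while VIM rose from 88412 to 108048, all under the fold threshold. The summed astrocyte and glioma list was 144286 to 152085 with vehicle and 152314 to 154036 at the high dose. That sum is mostly VIM and CD44, so it hides the falls in the other markers. The neuron markers summed to 1311 to 1372 with vehicle and 998 to 1065 at the high dose, where SNAP25 went from 704 to 167 and SYT1 from 638 to 868. The microglia and leukocyte markers summed to 3080 to 3249 and 3917 to 4201, where CD68 went from 2864 to 3953 and PTPRC from 275 to 84.8. Of the CD68 exon bases, 81.6% are shared with another gene on the same strand, so its counts and this sum are uncertain. The oligodendrocyte markers, mostly MBP, summed to 138 to 172 and 260 to 263. The part of these marker changes in the results was not tested.

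MT2A rose with dose and was the single member called a differentially expressed gene (DEG), which required a DESeq2 adjusted p under 0.05 and a fold change over 1.5. It encodes the most widely expressed human metallothionein. The gene (ENSG00000125148) has 3 exons and lies on chromosome 16, 56608584 to 56609497 (GRCh38, as are all coordinates). Normalised counts, which are counts divided by the library's size factor, were 4395, 4361 and 4756 with vehicle and 4978, 4718 and 4698 at the low dose. The medium dose gave 5741, 6241 and 5861, and the high dose 7760, 7252 and 7220. The low dose libraries overlapped the vehicle libraries, all medium dose libraries lay above both groups, and all high dose libraries lay above the medium ones.

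The MT2A mean went from 4504 ± 219 (SD, n = 3) with vehicle to 7410 ± 303 at the high dose, a fold of 1.65 (95% confidence interval 1.55 to 1.74). The log2 fold change was 0.72 (DESeq2 adjusted p 1.19e-65, SE 0.0415), and the edgeR quasi-likelihood test gave an adjusted p of 9.48e-13. With the medium dose MT2A rose to 5948 ± 261, a log2 fold change of 0.40 (DESeq2 adjusted p 3.04e-20, SE 0.0418) that was short of the fold threshold. Each step between the doses also passed the test, with a log2 fold change of 0.31 from low to medium (DESeq2 adjusted p 4.72e-12), where 18.9% of genes passed the adjusted p alone, and of 0.32 from medium to high (DESeq2 adjusted p 1.71e-13). At the low dose MT2A was 4798 ± 157, a log2 fold change of 0.092 with a 95% confidence interval from 0.0094 to 0.17, and did not pass (DESeq2 adjusted p 0.281).

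**Figure D1:**
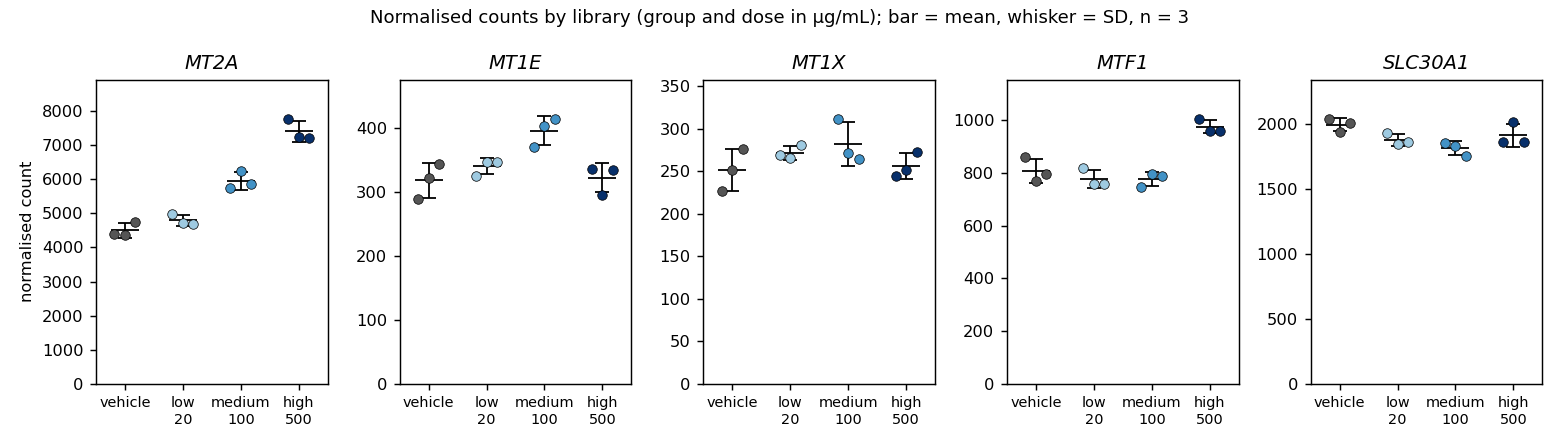
Normalised counts of the 5 members with more than a few counts, one point per library, by group with the dose in µg/mL; horizontal bars are means and whiskers SD (n = 3), and each axis starts at 0. MT2A climbs from 4504 to 7410, MTF1 is higher at the high dose alone, MT1E peaks at the medium dose, while MT1X lies between 227 and 311 and SLC30A1 between 1750 and 2032.

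At the high dose 1 of the 7 members with an adjusted p was a DEG, beside 18.2% of the 19453 genes tested (8.66% higher and 9.57% lower), so the share of members called was near that of all genes. MT1M and MT3 had too few counts for an adjusted p. At the medium dose 0 of 5 tested members were DEGs by DESeq2, beside 3.81% of 14082 genes; 3 members had an unadjusted p under 0.05, and edgeR called 0 DEGs as well. At the low dose 0 of 5 were DEGs, beside 0.118% of 9304 genes, with 1 unadjusted p under 0.05 (MT2A) and again 0 DEGs by edgeR; 0 members passed the adjusted p alone, which 3.29% of genes did. Between doses, 0 members were DEGs by DESeq2 or edgeR, beside 10.2% of genes from medium to high and 1.94% from low to medium, with 3 and 2 members at an unadjusted p under 0.05. Over all 4 groups at once, 3 of 7 tested members differed in the DESeq2 likelihood ratio test (MT2A, MTF1 and MT1E), beside 45.8% of genes. At the high dose, the 5 members with a mean of at least 10 normalised counts had a median log2 fold change of 0.029, beside 0.0023 over 15278 genes under the same limit.

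MT1E and MT1X, the other metallothioneins with substantial counts, did not pass the test at the high dose, and MT1E was higher at the medium dose. Both encode MT1 isoforms that bind metal much as MT2A does. MT1E (ENSG00000169715, chromosome 16, 56625475 to 56627112) had 289, 322 and 344 normalised counts with vehicle and 326, 348 and 348 at the low dose. The medium dose gave 371, 404 and 414, and the high dose 337, 296 and 335. The medium dose libraries lay above all others, and the high dose libraries fell within the vehicle range.

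At the medium dose MT1E was 396 ± 22.3 against 318 ± 27.9 with vehicle, a log2 fold change of 0.32 (DESeq2 adjusted p 0.00846, SE 0.101), under the fold threshold. That call was lost without vehicle replicate 1 (log2 fold change 0.25, DESeq2 adjusted p 0.101) or medium replicate 3 (0.28, DESeq2 adjusted p 0.076). At the high dose it was 323 ± 22.8, with a fold of 1.01 and a 95% confidence interval from 0.88 to 1.16 (DESeq2 adjusted p 0.914). The high dose was lower than the medium dose by the direct test (log2 fold change -0.30, DESeq2 adjusted p 0.00933, SE 0.101), a comparison in which 3 of 6 tested members passed the adjusted p, beside 40.9% of genes. This call was lost without medium replicate 2 (adjusted p 0.0501), medium replicate 3 (0.0711) or high replicate 2 (0.1), all in DESeq2. From low to medium, MT1E passed with edgeR (adjusted p 0.0222) and not with DESeq2 (adjusted p 0.12).

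MT1X (ENSG00000187193, chromosome 16, 56682470 to 56684196) did not pass in any comparison. It had 227, 252 and 276 normalised counts with vehicle, 269, 265 and 280.4 with the low, 311, 271 and 264 with the medium and 244, 252 and 273 with the high dose. Every dosed group overlapped the vehicle libraries. Its fold at the high dose was 1.02, with a 95% confidence interval from 0.872 to 1.19 (DESeq2 adjusted p 0.874), an interval that lies below the one for MT2A. Of the MT1X exon bases, 18.6% are shared with ENSG00000259827, a long noncoding gene on the same strand, which leaves some of its counts in doubt.

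**Figure D2:**
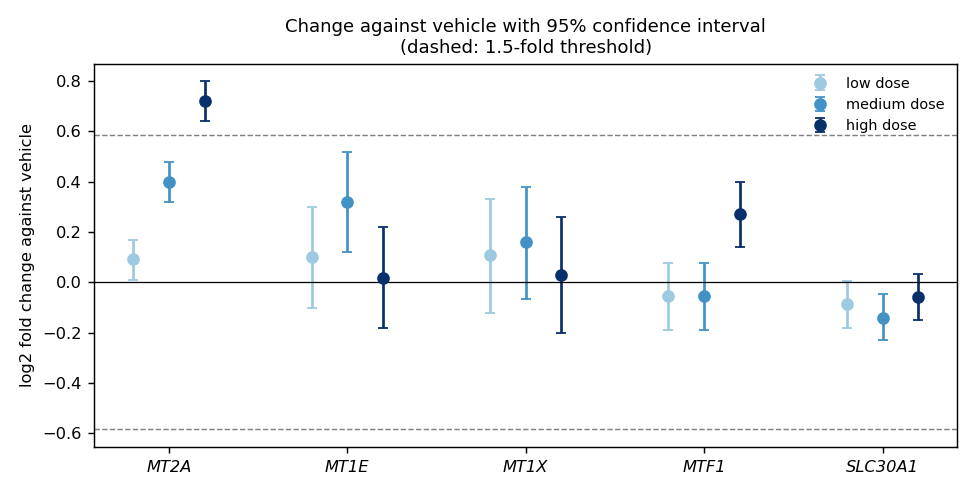
Log2 fold change against vehicle of the 5 members with more than a few counts at the low, medium and high dose, as points with 95% confidence intervals; dashed lines mark the 1.5-fold threshold. MT2A at the high dose, at 0.72, is the one point beyond the threshold, and the MT1E and MT1X intervals at the high dose span 0.

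The remaining members were at the edge of detection. MT1F had 3 to 13 counts per library, MT1G 0 to 4, MT1M 0 to 4 and MT3, the nervous system form, 0 to 1. MT1F stood at 9.22, 11.4 and 12.5 normalised counts with vehicle and 5.79, 5.41 and 8.42 at the high dose. These groups did not overlap, as was the case for 60.4% of genes tested at that dose, and the log2 fold change of -0.75 (SE 0.612) did not pass (DESeq2 adjusted p 0.338). MT1M had counts of 0, 1 and 0 with vehicle, 1, 3 and 4 at the medium dose and 2, 3 and 1 at the high dose. No change in MT1F, MT1G, MT1M or MT3 was detectable at this depth.

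Of 13 other metallothionein genes and pseudogenes listed, 11 were at 0 throughout, which in each library still allows for up to 3 counts. The exceptions were MT1A, with 1 to 8 counts, and the pseudogene MT1L, with 17 to 41 counts. By DESeq2, 0 of these were DEGs at any dose, beside 18.2%, 3.81% and 0.118% of all genes at the high, medium and low dose. An unadjusted p under 0.05 was found for 0 of these, and edgeR passed 0. On the 119.1 kb of chromosome 16 that hold 16 of the listed genes and members, the 3 genes with substantial counts are spread out, with MT1E starting 16.9 kb and MT1X 73.9 kb after the start of MT2A. Metallothionein genes resemble each other closely, and RSEM shares reads that fit several of them, so the split between the genes is uncertain, above all for those with few counts.

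**Figure D3:**
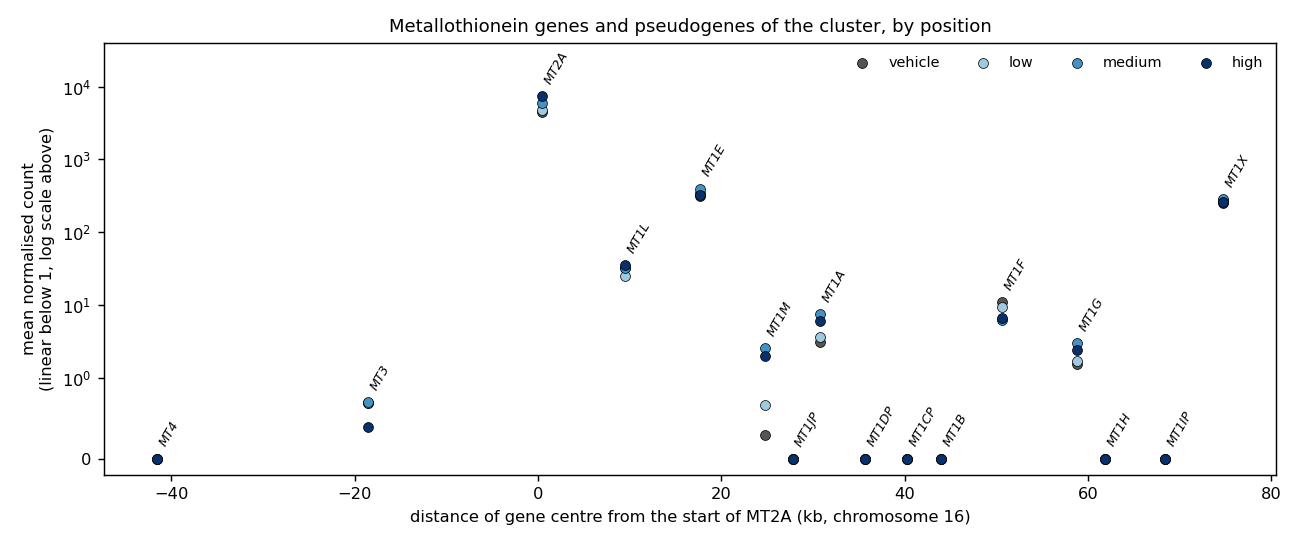
Mean normalised count of each metallothionein gene or pseudogene on chromosome 16 (vertical axis, linear below 1 and log scale above; n = 3 per group) against the distance of its centre from the start of MT2A in kb. MT2A, MT1E and MT1X stand far above their neighbours in all 4 groups, and 7 genes lie at 0.

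Per kb of the main transcript, which allows a rough comparison of levels between genes, MT2A had 11232 normalised counts with vehicle, MT1X 623 and MT1E 427. SLC30A1 had 338 and MTF1 102 on that scale, and MT1F had 26. The vehicle libraries ranged from 563 to 683 per kb for MT1X, from 387 to 462 for MT1E and from 329 to 345 for SLC30A1. These neighbours in the order therefore did not overlap. The order of MT1X and MT1E rests on the transcript length used, 404 bases for MT1X and 746 for MT1E. In normalised counts with vehicle, not divided by length, MT1E was above MT1X, with means of 318 and 252. MT1G, MT1M and MT3 were all under 5 per kb and could not be ranked.

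MT2A carried most of the metallothionein RNA, and its share was higher in all 3 high dose libraries than in any vehicle library. The 9 metallothionein genes with a count, MT1A and MT1L included, summed to 5123 ± 271 normalised counts with vehicle, 5452 ± 153 with the low, 6678 ± 264 with the medium and 8042 ± 309 with the high dose (SD, n = 3). MT2A made up 88.8%, 87.5% and 87.5% of that sum in the vehicle libraries and 92.4%, 92.4% and 91.6% in the high dose libraries, which did not overlap.

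The ratio of MT2A to MT1E counts within a library, which no size factor affects, was 15.2, 13.6 and 13.8 with vehicle, 15.3, 13.6 and 13.5 with the low, 15.5, 15.5 and 14.2 with the medium and 23, 24.5 and 21.6 with the high dose. The ratio of MT2A to MT1X was 19.3, 17.3 and 17.2 with vehicle, 18.5, 17.8 and 16.8 with the low, 18.5, 23 and 22.2 with the medium and 31.8, 28.7 and 26.4 with the high dose. Both ratios were higher in all 3 high dose libraries than in any other library. The two-sided exact permutation test against vehicle gave p = 0.1 for each, which is the smallest that 3 against 3 libraries allow and cannot pass 0.05. At the medium dose MT2A and MT1E were both higher than vehicle, and their ratio overlapped the vehicle ratios (exact permutation p = 0.2).

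**Figure D4:**
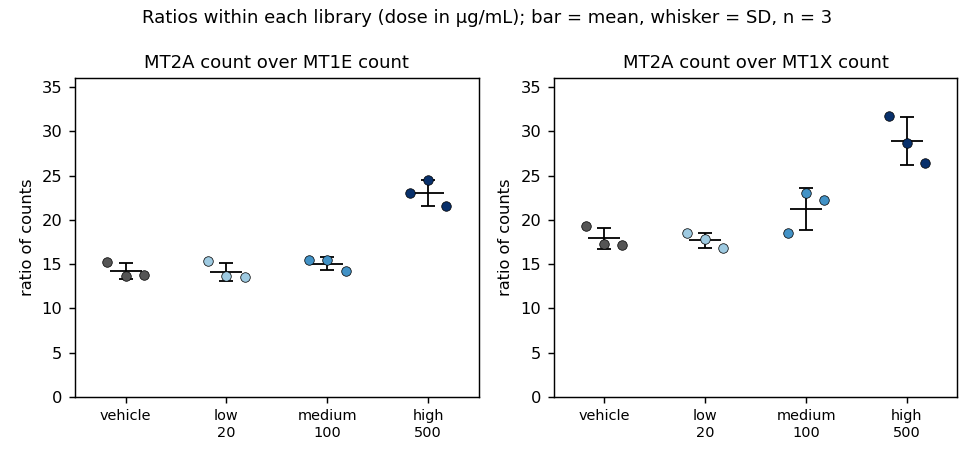
Ratio of MT2A to MT1E counts (left) and of MT2A to MT1X counts (right) in each library, by group with the dose in µg/mL; bars are means and whiskers SD (n = 3). The high dose ratios, 21.6 to 24.5 and 26.4 to 31.8, lie above those of every other library.

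MTF1, the zinc-sensing activator of these genes (ENSG00000188786, chromosome 1, 37809574 to 37859592), was higher at the high dose and did not pass the test at the lower doses. Its normalised counts were 859, 770.1 and 796 with vehicle, 817, 759 and 757 with the low, 748, 795 and 788 with the medium and 1003, 960.4 and 959.6 with the high dose. The high dose libraries lay above all 9 others, which overlapped one another. The rise was from 808 ± 45.5 to 974 ± 24.6 (SD, n = 3), a log2 fold change of 0.27 (DESeq2 adjusted p 0.000125, SE 0.0652) under the fold threshold, and 46.5% of tested genes passed the adjusted p alone at that dose. The high dose was also above the medium dose, by 0.32 on the log2 scale (DESeq2 adjusted p 4.65e-06, SE 0.0657). At the medium dose the log2 fold change against vehicle was -0.055 with a 95% confidence interval from -0.19 to 0.076 (DESeq2 adjusted p 0.595). MT2A was higher than vehicle at that dose, and any link between MTF1 RNA and MT2A was not tested.

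SLC30A1, the zinc exporter of the plasma membrane (ENSG00000170385, chromosome 1, 211571568 to 211579161), was not higher than vehicle at any dose by the test. It had 2032, 1938 and 2004 normalised counts with vehicle, 1927, 1839 and 1856 with the low, 1848, 1831 and 1750 with the medium and 1856, 2010 and 1860 with the high dose. The low and medium dose libraries lay below the vehicle libraries, and the high dose libraries overlapped them. At the low dose 25.7% of tested genes had groups that did not overlap, and at the medium dose 50.3%. SLC30A1 at the medium dose fell from 1991 ± 48.4 to 1810 ± 52.4, a log2 fold change of -0.14 (DESeq2 adjusted p 0.0145, SE 0.047), where 29.5% of tested genes passed the adjusted p alone. The call was lost without vehicle replicate 1 (adjusted p 0.0913), vehicle replicate 3 (0.0624) or medium replicate 3 (0.125), all in DESeq2. At the high dose the fold was 0.96, with a 95% confidence interval from 0.901 to 1.02 (DESeq2 adjusted p 0.319).

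Zinc transporters were described from lists of 10 other genes grouped as zinc exporters and 14 grouped as importers. Of these, 7 and 12 had an adjusted p at the high dose. Among the exporters 1 was a DEG at the high dose and higher, and 3 passed the adjusted p alone, all higher, beside 18.2% DEGs and 46.5% passing among all genes. The DEG was SLC30A2, which loads zinc into vesicles and is needed for zinc in milk. Its counts were 1, 0 and 1 with vehicle, 2, 1 and 1 with the low, 2, 2 and 4 with the medium and 17, 24 and 26 with the high dose. The high dose libraries stood well above all others. Per total count, 67 against 2 counts gave a ratio of 31.3 with an exact 95% counting interval from 8.34 to 264 (DESeq2 adjusted p 4.79e-05). SLC30A5 and SLC30A7, which bring zinc into the secretory pathway, rose by log2 fold changes of 0.29 (DESeq2 adjusted p 1.16e-13, SE 0.0383) and 0.22 (DESeq2 adjusted p 6.3e-05, SE 0.051). SLC30A9, which serves mitochondria, had a log2 fold change of 0.047 (DESeq2 adjusted p 0.463).

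Among the importers 1 DEG was higher and 1 lower at the high dose, and 5 were higher and 2 lower by the adjusted p alone. These 2 of 12 and 7 of 12 were near the shares of all genes, 18.2% and 46.5%. SLC39A14, or ZIP14, brings zinc, iron and manganese into the cell. Its normalised counts were 4263, 4190 and 4213 with vehicle, 4391, 4581 and 4123 with the low, 5857, 5680 and 5426 with the medium and 8020, 7781 and 7822 with the high dose. As for MT2A, the low dose overlapped vehicle and the medium and high dose libraries stood apart in that order. Against vehicle, the medium dose gave a log2 fold change of 0.42 (DESeq2 adjusted p 9.76e-28, SE 0.0373) and the high dose one of 0.90 (DESeq2 adjusted p 3.57e-130, SE 0.0368).

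SLC39A8, or ZIP8, a close relative of SLC39A14 that carries the same metals, went the other way. It had 412, 347 and 339 normalised counts with vehicle and 222, 242 and 253 at the high dose, with no overlap. The log2 fold change was -0.61 (DESeq2 adjusted p 1.73e-07, SE 0.11). It passed the adjusted p but not the fold threshold without vehicle replicate 1 (-0.52) or high replicate 1 (-0.56). Of the importers with the highest counts, SLC39A7 (log2 fold change 0.12, DESeq2 adjusted p 0.0022) and SLC39A6 (0.15, DESeq2 adjusted p 0.000678) were slightly higher at the high dose. SLC39A1 was lower there (-0.42, DESeq2 adjusted p 6.4e-21), though 60.8% of SLC39A1 exon bases are shared with another gene on the same strand. At the medium dose SLC39A7 was instead lower than vehicle (-0.12, DESeq2 adjusted p 0.00465). SLC39A1 was lower at that dose too (-0.17, DESeq2 adjusted p 0.000655), and SLC39A6 did not pass (0.033, DESeq2 adjusted p 0.607). Exporters had a median log2 fold change of 0.07 and importers of 0.12 against vehicle at the high dose, beside 0.0023 for all genes.

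At the medium dose 0 of 5 tested exporters and 0 of 11 tested importers were DEGs by DESeq2, beside 3.81% of all genes. The DESeq2 adjusted p alone passed 0 exporters and 5 importers, beside 29.5% of all genes. For the exporters, 0 had an unadjusted p under 0.05 and 0 passed with edgeR, and for the importers 7 did and 7 passed. At the low dose there were 0 DEGs among 5 tested exporters and 10 tested importers, beside 0.118% of all genes. The DESeq2 adjusted p alone passed 0 in either list there, beside 3.29% of all genes. In each list 1 gene had an unadjusted p under 0.05, and 0 passed with edgeR.

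**Figure D5:**
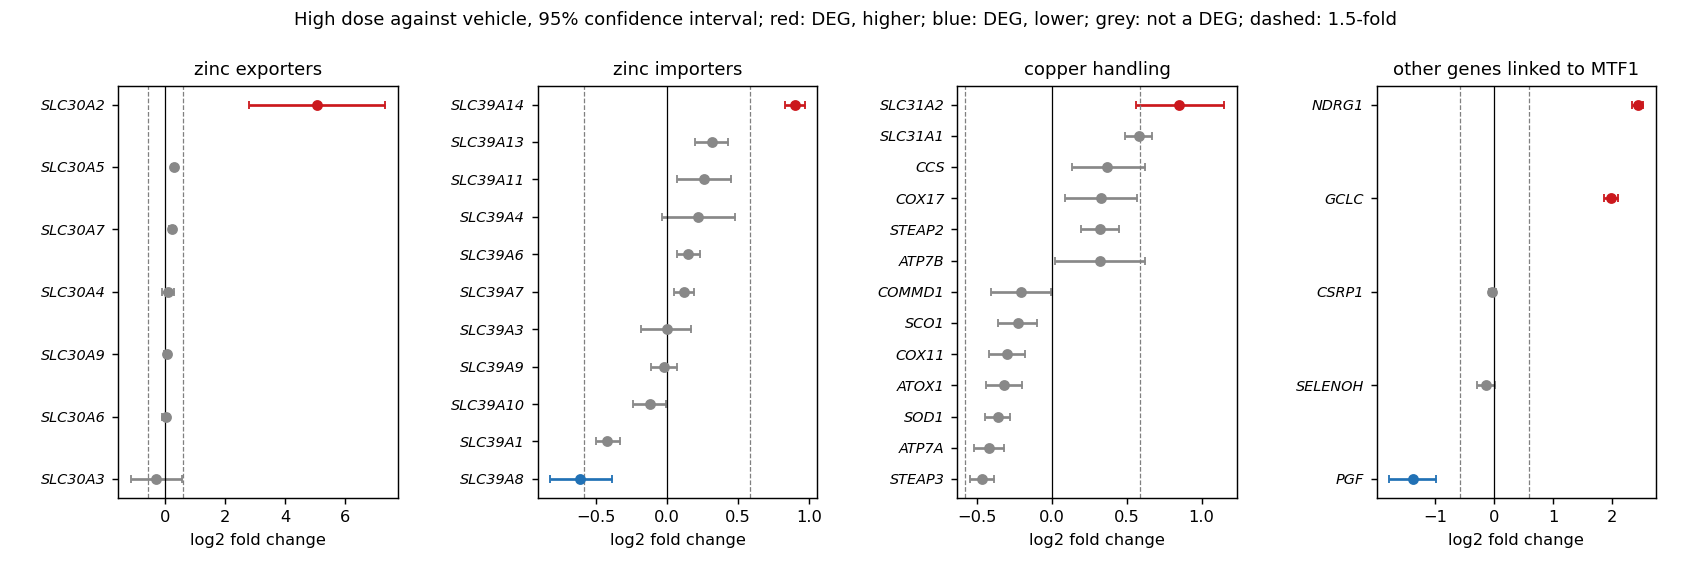
Log2 fold change at the high dose against vehicle with 95% confidence intervals for zinc exporters, zinc importers, copper handling genes and other genes linked to MTF1, for genes with a mean of at least 10 normalised counts and SLC30A2; red points are higher DEGs, blue points lower DEGs, grey points neither, dashed lines the 1.5-fold threshold, and the horizontal scales differ between panels. SLC39A14 and SLC39A8 lie at opposite ends of the importers, and the fitted value of SLC30A2 rests on 2 vehicle counts.

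Of 5 other genes linked to MTF1, 2 were higher DEGs and 1 a lower DEG at the high dose, beside 8.66% and 9.57% of all genes. NDRG1, a gene induced by stress and hypoxia, had 745, 732 and 725 normalised counts with vehicle and 3811, 4012 and 4070 at the high dose. Its log2 fold change was 2.43 (SE 0.0515), and DESeq2 returned 0 as its adjusted p, below what it can store. GCLC encodes the catalytic subunit of the enzyme that makes the first step of glutathione synthesis and is also a target of NRF2. It went from 666, 654 and 642 with vehicle to 1044, 1001 and 1091 at the medium dose and 2546, 2537 and 2649 at the high dose. Its libraries did not overlap between any of these groups. GCLC was a DEG at both doses, with log2 fold changes of 0.68 (DESeq2 adjusted p 8.67e-26, SE 0.0621) and 1.98 (DESeq2 adjusted p 1.38e-245, SE 0.0588).

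PGF, a growth factor of the VEGF family, fell from 115 ± 10.3 to 44.3 ± 5.33 normalised counts at the high dose (SD, n = 3), a log2 fold change of -1.38 (DESeq2 adjusted p 7.43e-11, SE 0.204). CSRP1 (-0.032, DESeq2 adjusted p 0.45) and SELENOH (-0.14, DESeq2 adjusted p 0.121), which shares 20.8% of its exon bases with a gene on the same strand, did not pass at the high dose. The 5 genes thus included changes in both directions, with a median log2 fold change of -0.032. At the medium dose 1 of the 5, GCLC, was a DEG, beside 3.81% of all genes. By the DESeq2 adjusted p alone 3 were higher and 1 lower there, beside 29.5% of all genes. CSRP1 was among the higher ones (log2 fold change 0.25, DESeq2 adjusted p 7.84e-14) and fell from the medium to the high dose (-0.28, DESeq2 adjusted p 8.5e-18). At the low dose 0 of the 5 genes were DEGs by DESeq2, beside 0.118% of all genes, with 0 at an unadjusted p under 0.05. The adjusted p was passed by 0 with DESeq2, beside 3.29% of all genes, and by 0 with edgeR.

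The genes whose pattern was most like that of MT2A were sought among 11221 genes with a mean of at least 100 normalised counts, by Pearson's r of log2(normalised count + 1) over the 12 libraries. For MT2A these included RAPGEF1 (r = 0.991), CCZ1 (0.991), SMG5 (0.990) and ENSG00000275993 (0.989), and 1630 genes had r over 0.9. For MTF1 they were KMT2A (0.978), ICE1 (0.967), HIPK1 (0.966), TMBIM6 (0.966) and MTMR6 (0.962), with 382 genes over 0.9. For SLC30A1 they were BLOC1S2 (0.929), SELENOF (0.859), MT-ND4L (0.857), CRKL (0.856) and KCNE4 (0.852), with 1 gene over 0.9. The points share the 4 groups and the size factors, so r mostly describes the dose pattern of each gene.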

How the data were processed

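SW1783 RNA was sequenced in 12 libraries, grouped by the treatment labels and titles. Per the labels and the study's methods, the authors made strand-specific mRNA libraries, checked reads with FastQC 0.11.9, trimmed with Trim Galore 0.6.5, aligned with STAR 2.7.3a to GRCh38 and counted with RSEM 1.3.3 (versions from the submitters' processing notes; the methods give other versions for trimming and alignment). The strand setting of the counting is not given in the sources used here. The deposited values are RSEM expected counts per gene of Ensembl release 84, of which 8.75% were not whole; they were rounded here. Symbols and coordinates came from GENCODE v44, which held 93.2% of the IDs. Shared exon bases were also taken from GENCODE v44, and whether each overlapping gene was part of release 84 was not checked. No column was left unused.

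Tests were two-sided DESeq2 1.42.0 Wald tests in R 4.3.3. The Wald test and the DEG thresholds follow the study, whose methods do not state which libraries were fitted together or the filtering. Here all 12 libraries were fitted with group as the one term, with Benjamini-Hochberg adjustment over all genes and independent filtering at 0.05. This left genes with mean normalised counts under 1.72 (high), 18.3 (medium) and 263 (low dose) without an adjusted p. Alternatives were edgeR 4.0.16 with filterByExpr, TMM or other size factors, filtering settings, a replicate block, fewer groups and leaving out each library. The DESeq2 fit was also run on counts simulated from the means and spreads it had itself fitted. Such a run cannot check the assumptions of the model or the sharing of reads between genes. Replicate pairs differed by 1.99 to 3.55 in chi-square per degree of freedom, more than counting noise. Deviations of libraries with the same replicate number had r from -0.118 to 0.221 over 18 pairs, 5 of them over 0.1; the medium and low dose were the one pair of groups in which all 3 exceeded 0.1 (0.124 to 0.193). Counting intervals and limits cover counting error only.

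Members, gene lists and tests were chosen with earlier results of these data known. The text names all 9 members and, from each list, every DEG against vehicle and up to 3 others with the highest mean counts; CCS, COX17 and others appear in a plot only. An item that the naming rule picked is not reported here.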

Additional observations from a re-analysis of the deposited data

How the results depend on the processing

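Each comparison of 2 groups had 21 alternatives, and the test among the 4 groups had fewer. Not all were new fits. The settings of independent filtering kept the main fold changes and altered only the adjusted p, and the adjusted p alone altered only the call. Of 560 log2 fold changes of named genes under the alternatives, 547 kept their direction and their side of the adjusted p threshold. In all, 23 of 28 genes and comparisons did so throughout. MT2A at the high dose lay between 0.69 and 0.76 with any one library left out and was a DEG in every alternative. The calls that were lost, for MT1E and SLC30A1, stand with their values in the report. The sign of uncalled values changed for MT1E at the high dose, from -0.046 to 0.078 with one library left out, and for MT1X, from -0.038 to 0.10; the values below 0 came without vehicle replicate 1 or high replicate 3 for both genes, and also without high replicate 1 for MT1E. With the adjusted p alone, 2 members were called with the high dose, 3 with the medium dose, 3 between the high and medium doses and 1 between the medium and low doses, since that choice drops the fold threshold. Among the 4 groups, MT1E no longer passed without medium replicate 2 (DESeq2 adjusted p 0.112) or medium replicate 3 (0.159), and SLC30A1 (0.0625) passed with edgeR (0.0191) and among genes kept by filterByExpr (0.0391). The replicate block changed no call of a member, and MT2A at the high dose stayed at 0.72. From low to medium, where libraries with the same number deviated together weakly (r 0.124 to 0.193), MT2A stayed at 0.31 (DESeq2 adjusted p 8.46e-11).

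Counts of DEGs over all genes moved more. The adjusted p alone gave 9040 against 3546 (high dose), 4157 against 537 (medium dose), 306 against 11 (low dose), 6738 against 1679 between the high and medium doses and 2657 against 273 between the medium and low doses. With edgeR there were 809 at the medium dose, 30 at the low dose and 427 between them. At the low dose the count was 18 without independent filtering, 6 with only the vehicle and low dose libraries, and 6 to 13 with one library left out. Depth limits MT1F, MT1G, MT1M and MT3, for which no alternative can give a usable fold change.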

Other observations

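Genes that handle copper, the other metal metallothioneins bind, changed in both directions at the high dose. Of 16 listed, 13 had an adjusted p, 1 was a DEG and higher, beside 18.2% DEGs among all genes, and by the DESeq2 adjusted p alone 5 were higher and 6 lower, beside 46.5% of all genes. SLC31A2, a copper transporter of endosomes and lysosomes, had 204, 129 and 176 normalised counts with vehicle and 310.3, 325 and 281 at the high dose, with no overlap (log2 fold change 0.85, DESeq2 adjusted p 4.95e-08, SE 0.149). Of its exon bases, 64% are shared with FKBP15 on the opposite strand, and whether counting used the strand is not stated, so its counts are uncertain, as in smaller part are those of STEAP3, with 11% shared. SLC31A1, the main copper importer of the plasma membrane, went from 1624 ± 24.4 to 2432 ± 53.4 (SD, n = 3), a log2 fold change of 0.58 (DESeq2 adjusted p 1.88e-35, SE 0.046) just short of the fold threshold of 0.585. STEAP3, a metalloreductase (-0.47, DESeq2 adjusted p 1.98e-28), and SOD1, the copper and zinc superoxide dismutase (-0.36, DESeq2 adjusted p 2.01e-16), were lower. The list's median log2 fold change was -0.21, beside 0.0023 for all genes. At the medium and low doses 0 of 13 and 0 of 10 tested copper genes were DEGs by DESeq2, beside 3.81% and 0.118% of all genes. The DESeq2 adjusted p alone passed 5 and 0, beside 29.5% and 3.29% of all genes. An unadjusted p under 0.05 was found for 6 and 2 copper genes, and 6 and 0 passed with edgeR.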
